A study of Mus musculus with 4 samples.

Results

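Transcripts of 41 genes of DNA replication were examined in the mesenchyme of developing mouse molars with and without a conditional deletion of Bmp4. The genes were taken from a list of names covering the replication machinery, its nucleotide supply and the chromatin of the fork, and all 41 were found among the 22072 genes listed. Bmp4, a growth factor made by the tooth mesenchyme, was targeted in embryos labelled Bmp4f/f;Wnt1Cre, where Wnt1Cre drives recombination in the neural crest from which this mesenchyme descends. Controls were labelled Bmp4f/+, with 1 Bmp4 allele that could be recombined and no Cre named, so Cre and the Bmp4 deletion cannot be told apart in what follows. All embryos were of embryonic day 13.5 and of a mixed strain background. Mesenchyme of the upper and of the lower molar was cut from frozen sections with a laser. RNA came from pools made over 3 control and mutant pairs, and each of the 4 groups gave 1 RNA-seq library. Embryos were therefore not replicated within a group. The labels leave unstated whether 1 set of embryos gave both molars of a genotype.

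DNA replication begins with licensing. The origin recognition complex, Cdc6 and Cdt1 load the ring of Mcm2 to Mcm7 onto DNA in G1, and Mcm10, Cdc45 and the GINS complex turn that ring into the active helicase at S phase entry. Primase and polymerase alpha then lay down primers, polymerases epsilon and delta extend them on the clamp Pcna, the Rfc complex loads that clamp, RPA coats single strands, and Fen1 and Lig1 join the lagging strand. Many of these genes are transcribed in late G1 under E2F transcription factors, and their messages are used as a sign of cycling cells in growing tissues such as the tooth bud.

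The promoters are shown first. The genes were chosen by name and not by promoter sequence. Many are known to be transcribed under E2F factors, so E2F-type motifs are not independent of that choice. RefSeq windows from 250 bases before to 50 bases after the annotated start, on GRCm38.p6, were matched by symbol for 34 of the 41 genes; the 7 without a window were Gins1, Gins2, Gins4, Mcm4, Pole, Prim2 and Rfc2. Letters of the E2F type were searched on both strands, namely TTTCGCGC, TTTGGCGC, TTTCCCGC, TTTGGCGG and TTTCCCGG. For 6 genes the 160 bases before the start are printed 5′ to 3′ on the gene's strand, with the matched letters in capitals. Mcm5 and Mcm6 carry overlapping matches, Pola1, Cdc6 and Chaf1a carry 1 each, and Rrm2, whose level differed most between mutant and control in the lower molar, carries none.
Mcm5, chr8:75109349-75109508, plus strand: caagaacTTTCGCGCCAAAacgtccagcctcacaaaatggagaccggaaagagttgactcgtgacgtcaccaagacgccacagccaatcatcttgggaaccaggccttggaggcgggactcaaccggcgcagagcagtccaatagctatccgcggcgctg
Mcm6, chr1:128359706-128359865, minus strand: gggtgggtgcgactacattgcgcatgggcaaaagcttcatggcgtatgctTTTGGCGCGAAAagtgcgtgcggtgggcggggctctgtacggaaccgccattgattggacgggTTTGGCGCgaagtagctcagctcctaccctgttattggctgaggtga
Pola1, chrX:93632156-93632315, minus strand: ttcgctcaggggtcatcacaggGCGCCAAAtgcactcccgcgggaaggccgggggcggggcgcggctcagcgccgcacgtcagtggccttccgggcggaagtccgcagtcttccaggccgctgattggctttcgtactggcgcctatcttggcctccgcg
Cdc6, chr11:98907991-98908150, plus strand: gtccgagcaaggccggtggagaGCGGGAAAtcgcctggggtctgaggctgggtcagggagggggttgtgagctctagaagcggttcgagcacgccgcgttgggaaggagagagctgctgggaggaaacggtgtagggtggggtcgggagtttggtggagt
Chaf1a, chr17:56040256-56040415, plus strand: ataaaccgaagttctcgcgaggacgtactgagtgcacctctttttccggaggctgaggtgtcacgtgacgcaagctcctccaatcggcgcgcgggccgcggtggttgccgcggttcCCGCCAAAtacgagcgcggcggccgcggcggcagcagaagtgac
Rrm2, chr12:24708094-24708253, plus strand: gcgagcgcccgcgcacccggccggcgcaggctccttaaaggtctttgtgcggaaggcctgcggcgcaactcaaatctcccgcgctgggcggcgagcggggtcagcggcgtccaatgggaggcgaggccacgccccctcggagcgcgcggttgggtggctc

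At least 1 match lay in the windows of 17 of the 34 genes (50%), with 24 matches in all. Among the genes tested for expression, 600 of 7473 with a window held one (8.03%), and among all RefSeq windows 1107 of 27025 genes did (4.10%). Of 30 other replication factors with a window, 11 held one (36.7%), and of 27 genes of mitosis, 2 (7.41%). The letters TTTCCCGC were found in 7 of the replication genes, TTTCGCGC and TTTGGCGC in 6 each, TTTGGCGG in 4 and TTTCCCGG in none. In Mcm5 the first bases of the 2 overlapping matches lay 153 and 149 bases before the start, and in Mcm6 the 3 matches began 110, 106 and 47 bases before it. The overlapping pairs in Mcm5 and Mcm6 share bases, so they are not separate stretches. The CCAAT letters, a general promoter element, showed a different order, with 20 of the 34 replication genes (58.8%), 21 of the 27 mitosis genes (77.8%) and 43.7% of the tested genes. Rrm2 held CCAAT and no E2F-type match. These are matches of letters, not measured binding.

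**Figure D1:**
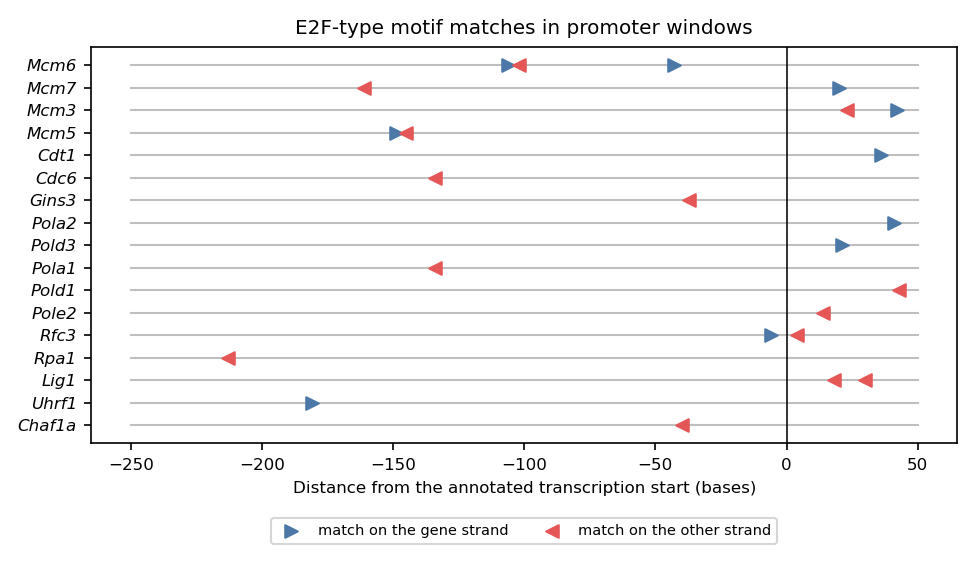
Positions of E2F-type matches for the 17 genes that held one. The horizontal axis gives distance from the annotated transcription start in bases, each row is a gene, and each triangle is the centre of a match, pointing right for the gene's strand and left for the other; 6 genes held 2 or more.

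The expression values are FPKM, a level corrected for transcript length and for the number of mapped reads, estimated by the authors for each transcript and summed here over the transcripts of a gene, so levels of different genes are compared per length. Each library had about 4820000 to 5550000 reads on transcripts. Differences are given as log2(FPKM + 1), mutant minus control or lower minus upper molar; adding 1 understates the change of genes with low values. Testing covered 10502 genes, those whose mean reached 1 FPKM, and all 41 replication genes passed that filter. Bmp4 checked the labels: it was 24.8 FPKM in the control upper, 27.2 in the control lower, 4.75 in the mutant upper and 4.90 in the mutant lower library. The genotype difference of Bmp4 was -2.21 (SE 0.11, limma adjusted p = 0.0008), and both mutant libraries lay below both controls. The 10 markers of molar mesenchyme, Msx1, Pax9 and Barx1 among them, each had at least 19.3 FPKM in every library. The 9 epithelial markers summed to between 20.4 and 23.0 FPKM per library, with Shh below 0.1 in all 4.

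The replication genes were all expressed, at mean levels from 2.39 FPKM for Gins3 to 59.2 FPKM for Pcna. The mean reached 10 FPKM for 21 of them and stayed under 5 for 9. In the upper molar the mutant values scattered around those of the control, with a median difference of 0.04 (quartiles -0.07 and 0.18, range -0.36 to 0.57). In the lower molar the mutant library was lower for 38 of 41 genes, with a median of -0.25 (quartiles -0.36 and -0.15, range -0.69 to 0.20). Over all tested genes the medians were 0.02 and -0.05. Bulk tissue cannot tell fewer cells in S phase from less of these messages per cell.

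Counted by sign, the mutant upper library lay below its control for 17 of 41 replication genes, against 46.8% of all tested genes, and the mutant lower library for 38 of 41, against 58.3%. Lower values in both molars were found for 16 of 41 genes, against 32.4% of all genes. Higher in the upper and lower in the lower molar were 22 of 41, against 25.9%. Rfc4 and Rfc5 were higher in both molars, and Mcm10 alone was lower in the upper and higher in the lower. The mutant lower-molar library held the lowest of the 4 values for 32 of 41 genes, against 38.2% of all tested genes. Among the 7852 tested genes with means in the range of the replication genes, 60.9% lay below control in the lower molar, with a median of -0.06. Summed over the 41 genes, the levels were 545.6 FPKM in the control upper, 575.8 in the control lower, 559.8 in the mutant upper and 458.7 in the mutant lower library. Those sums were 0.360%, 0.380%, 0.353% and 0.309% of all FPKM in the respective libraries.

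The sizes were small. At least 0.5 below control in the lower molar were 6 of the 41 genes (Rrm2, Rpa2, Tyms, Cdt1, Pold2 and Pola1), against 3.72% of all tested genes. In the upper molar Rpa3 alone differed by 0.5 or more in either direction, against 5.88% of all genes. A difference of 1 or more, a doubling or halving, was reached by none of the 41 in either molar, against 1.01% of all genes in the upper and 1.10% in the lower. From approximate read numbers, counting error alone gives a within-molar difference a standard error between 0.056 and 0.34 on the log2 scale, with a median of 0.11. The reads behind a gene ranged from 27 to 1466 per library, with a median of 338.

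**Figure D2:**
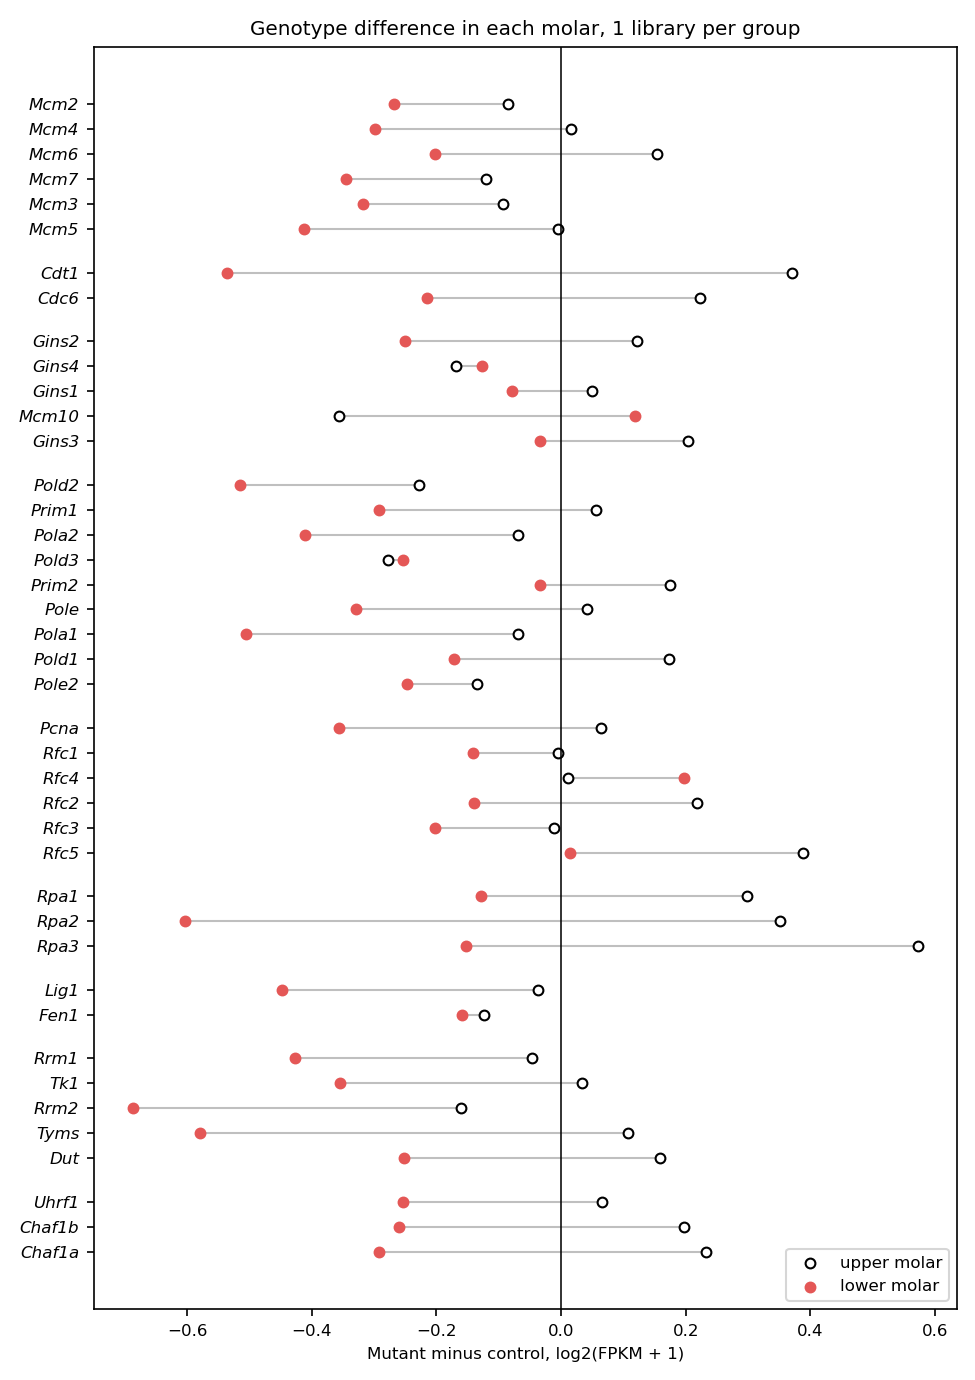
Difference in log2(FPKM + 1), mutant minus control, for each of the 41 genes, with open points for the upper and filled points for the lower molar. Each point compares 1 library with 1 library; the lower-molar points lie left of 0 for 38 genes and the upper-molar points for 17.

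A test was possible only by treating the 2 molars as replicates of a genotype. In limma's additive model of genotype and molar none of the 41 replication genes passed an adjusted p of 0.05 for genotype, where 0.800% of all tested genes did, and the smallest adjusted p among them was 0.28. At an unadjusted p under 0.05 there were 3, all lower in the mutant (Pold2, Rrm2 and Pold3), against 6.51% of all genes that passed it in that direction. The p-values rest on how far the molars disagreed and not on the spread between embryos. The half-widths of the 95% confidence intervals for the genotype difference ran from 0.25 to 0.50. The median genotype difference of the 41 was -0.12, and that of all tested genes -0.02. The account that follows gives values by role. Values given with a library left out come from fits with genotype alone or molar alone. The other factor is not held in those fits, so they differ from the main fit in model as well as in libraries.

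The helicase ring was even in level. Mcm2 to Mcm7, which act as 1 ring with a subunit of each, had means between 14.5 FPKM for Mcm5 and 22.9 FPKM for Mcm2, a ratio of 1.58. All 6 were lowest in the mutant lower molar. Mcm2, at chr6:88833468-88848774 on mm9, had 23.3 FPKM in the control upper, 25.4 in the control lower, 21.9 in the mutant upper and 20.9 in the mutant lower library. Mcm5 had 14.0, 17.2, 13.9 and 12.7 FPKM in the same order, with the control lower library above all others. Mcm7, whose introns hold the microRNAs Mir106b, Mir93 and Mir25, had 19.0, 19.4, 17.4 and 15.1 FPKM. Both mutant libraries of Mcm7 lay below both controls, as did those of Mcm2, Mcm3 and Mcm5. The share of all tested genes with that pattern is not given, here or for the genes below. The genotype difference of Mcm7 was -0.23 (SE 0.11, 95% interval -0.50 to 0.04, limma adjusted p = 0.45). Without the mutant lower library, and with genotype as the only term, that difference was -0.13. Over the 6 the median was -0.05 in the upper molar, with 4 lower, and -0.31 in the lower molar, with all 6 lower. Mcm3, Mcm4 and Mcm6 differed by -0.32, -0.30 and -0.20 in the lower molar.

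The licensing factors behaved differently in the 2 molars. Cdt1, which brings the Mcm ring to origins, had 5.70 FPKM in the control upper, 8.41 in the control lower, 7.66 in the mutant upper and 5.49 in the mutant lower library. Its differences were thus 0.37 (upper) and -0.54 (lower molar). Between the controls Cdt1 was 0.49 higher in the lower molar. Cdc6, an ATPase that acts with Cdt1, had 3.47, 3.15, 4.22 and 2.57 FPKM, highest in the mutant upper and lowest in the mutant lower library. With 1 library per group, whether a genotype difference depends on the molar could not be tested.

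GINS genes differed widely in level. Gins2, at chr8:123105166-123112975 on mm9, averaged 35.4 FPKM, Gins4 17.1, Gins1 8.13 and Gins3 2.39, although the 4 proteins form 1 complex. Gins2 had 35.2, 37.0, 38.4 and 30.9 FPKM in the control upper, control lower, mutant upper and mutant lower libraries. The mutant lower library was lowest, and the others lay close together. Gins2 overlaps Gse1, and reads of the pair may be shared, since strand handling of the libraries is not stated in the labels. Mcm10, which helps the helicase to start, had 3.998, 2.64, 2.90 and 2.95 FPKM and was highest in the control upper library. Of these 5 genes, 4 lay below control in the lower molar, with a median of -0.08; Gins1, Gins3 and Gins4 differed by -0.08, -0.03 and -0.13 there.

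All 9 polymerase and primase genes lay below control in the lower molar, with a median of -0.29, and 5 of 9 were lower in the upper molar, with a median of -0.07. Pold2, an accessory subunit of the lagging-strand polymerase delta at chr11:5772183-5778259 on mm9, had 17.6 FPKM in the control upper, 17.4 in the control lower, 14.9 in the mutant upper and 11.8 in the mutant lower library. Mutant values of Pold2 were 84.6% (upper) and 68.2% (lower molar) of control, and the genotypes did not overlap. Its genotype difference was -0.37 (SE 0.12, 95% interval -0.65 to -0.09, limma adjusted p = 0.28), the smallest adjusted p of the 41, and -0.22 without the mutant lower library. Pold2 overlaps Aebp1, so some of its reads may be of that gene. Pold3, another subunit of polymerase delta, had 11.9, 11.8, 9.68 and 9.75 FPKM, and its 2 mutant libraries were about as far below control in each molar. The difference for Pold3 was -0.27 (SE 0.11, 95% interval -0.52 to -0.01, limma adjusted p = 0.36). Pold1, the catalytic subunit of the same enzyme, had 3.86, 4.75, 4.48 and 4.10 FPKM, and its genotypes overlapped.

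Polymerase alpha starts each new strand. Its catalytic subunit Pola1, on the X chromosome at chrX:90550105-90877494 on mm9, had 5.08, 5.04, 4.79 and 3.25 FPKM in the control upper, control lower, mutant upper and mutant lower libraries. The mutant lower library stood below the rest, which were near 5. The genotype difference of Pola1 was -0.29 (SE 0.14, limma adjusted p = 0.44), with -0.064 when the mutant lower and -0.51 when the mutant upper library was left out. Pola2, its partner subunit, had 10.5, 13.2, 9.97 and 9.71 FPKM, with a genotype difference of -0.24 (SE 0.12, limma adjusted p = 0.47); that was -0.087 without the control lower and -0.39 without the control upper library. Prim2, a primase subunit, was nearer to even, with 7.12, 6.91, 8.17 and 6.72 FPKM, and Prim1, the other, had 14.1, 15.6, 14.7 and 12.6 FPKM. Pole and Pole2, of the leading-strand polymerase, differed by 0.04 and -0.13 in the upper molar. Their lower-molar differences were -0.33 and -0.25.

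Pcna, the sliding clamp, was the most abundant of the 41 by FPKM. It lies at chr2:132075022-132078916 on mm9 and had 63.3 FPKM in the control upper, 60.4 in the control lower, 66.2 in the mutant upper and 47.0 in the mutant lower library. The mutant lower library stood below the rest, at 77.7% of its control. The clamp loader genes did not share a direction. Rfc1, Rfc2 and Rfc3 differed by -0.14, -0.14 and -0.20 in the lower molar. Rfc4 had 7.79, 7.01, 7.86 and 8.18 FPKM, and was the only gene of the 41 with its highest value in the mutant lower library. Rfc5 had 3.44, 4.72, 4.81 and 4.78 FPKM, with the control upper library below the rest. Rfc4 overlaps Eif4a2.

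The RPA genes, whose proteins cover single-stranded DNA, were all higher in the mutant upper and all lower in the mutant lower molar. Rpa2 had 8.12 FPKM in the control upper, 11.4 in the control lower, 10.6 in the mutant upper and 7.18 in the mutant lower library. The 2 differences of Rpa2 were 0.35 and -0.60, the widest gap between molars among the 41. Rpa3 had 3.23, 5.22, 5.29 and 4.59 FPKM from 27, 43, 50 and 41 reads, and its control upper value was the lowest. Its upper-molar difference of 0.57 has a counting standard error of 0.34. The genotype difference of Rpa3 was 0.21 (SE 0.18, limma adjusted p = 0.67), and -0.069, 0.49 and 0.13 when the control upper, control lower or mutant upper library was left out. Rpa1 had 10.7, 12.1, 13.5 and 11.0 FPKM.

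Fen1 and Lig1, which trim and seal lagging-strand fragments, lay below control in each molar. Lig1 had 26.5, 30.8, 25.8 and 22.3 FPKM in the control upper, control lower, mutant upper and mutant lower libraries, with the mutant lower library lowest and the control lower highest. The genotype difference of Lig1 was -0.24 (SE 0.13, limma adjusted p = 0.49). Values for Lig1 with 1 library left out ran from -0.14, without either lower-molar library, to -0.35. Fen1 was lower in level, at 3.48, 3.20, 3.12 and 2.77 FPKM.

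Genes that supply nucleotides held the lowest median of the roles in the lower molar, -0.43 over 5 genes, all lower; in the upper molar the median was 0.03 and 2 were lower. Rrm2, the regulated subunit of ribonucleotide reductase, which makes deoxyribonucleotides, lies at chr12:25393119-25399011 on mm9. Its levels were 17.1 FPKM in the control upper, 16.5 in the control lower, 15.2 in the mutant upper and 9.85 in the mutant lower library. The genotypes did not overlap, and the mutant value was 88.9% (upper) and 59.8% (lower molar) of control. Rrm2 had a genotype difference of -0.42 (SE 0.15, 95% interval -0.77 to -0.08, limma adjusted p = 0.31). It was -0.13 without the mutant lower and -0.71 without the mutant upper library.

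Rrm1, the large subunit of the same enzyme, had 20.7, 21.3, 19.98 and 15.5 FPKM with differences of -0.05 and -0.43 in upper and lower molar. Tyms, which makes thymidylate, had 12.5, 15.2, 13.6 and 9.84 FPKM, so only the mutant lower library lay below both controls. The genotype difference of Tyms was -0.24 (SE 0.17, limma adjusted p = 0.60). Leaving out 1 library gave -0.021 (mutant lower), -0.11 (control lower), -0.36 (control upper) and -0.45 (mutant upper). Reads of Tyms may be shared with the pseudogene Tyms-ps, which had 6.80, 7.78, 7.13 and 5.19 FPKM with the same library lowest. Tk1, the thymidine kinase of S phase, had 16.4, 19.4, 16.8 and 15.0 FPKM and overlaps Afmid. Dut, which removes dUTP, had 5.99, 6.12, 6.81 and 4.98 FPKM.

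Chromatin genes of the fork were higher in the mutant upper and lower in the mutant lower molar, all 3 of them, with medians of 0.20 and -0.26. Chaf1a, a subunit of the factor that places histones on new DNA, had 8.96, 8.21, 10.7 and 6.53 FPKM in the control upper, control lower, mutant upper and mutant lower libraries. The highest and the lowest value of Chaf1a were both in mutants. Chaf1b, its partner, had 9.88, 9.57, 11.5 and 7.82 FPKM, in the same order of libraries. Uhrf1, which passes DNA methylation to the new strand, had 27.2, 28.3, 28.5 and 23.5 FPKM and was lowest in the mutant lower library.

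**Figure D3:**
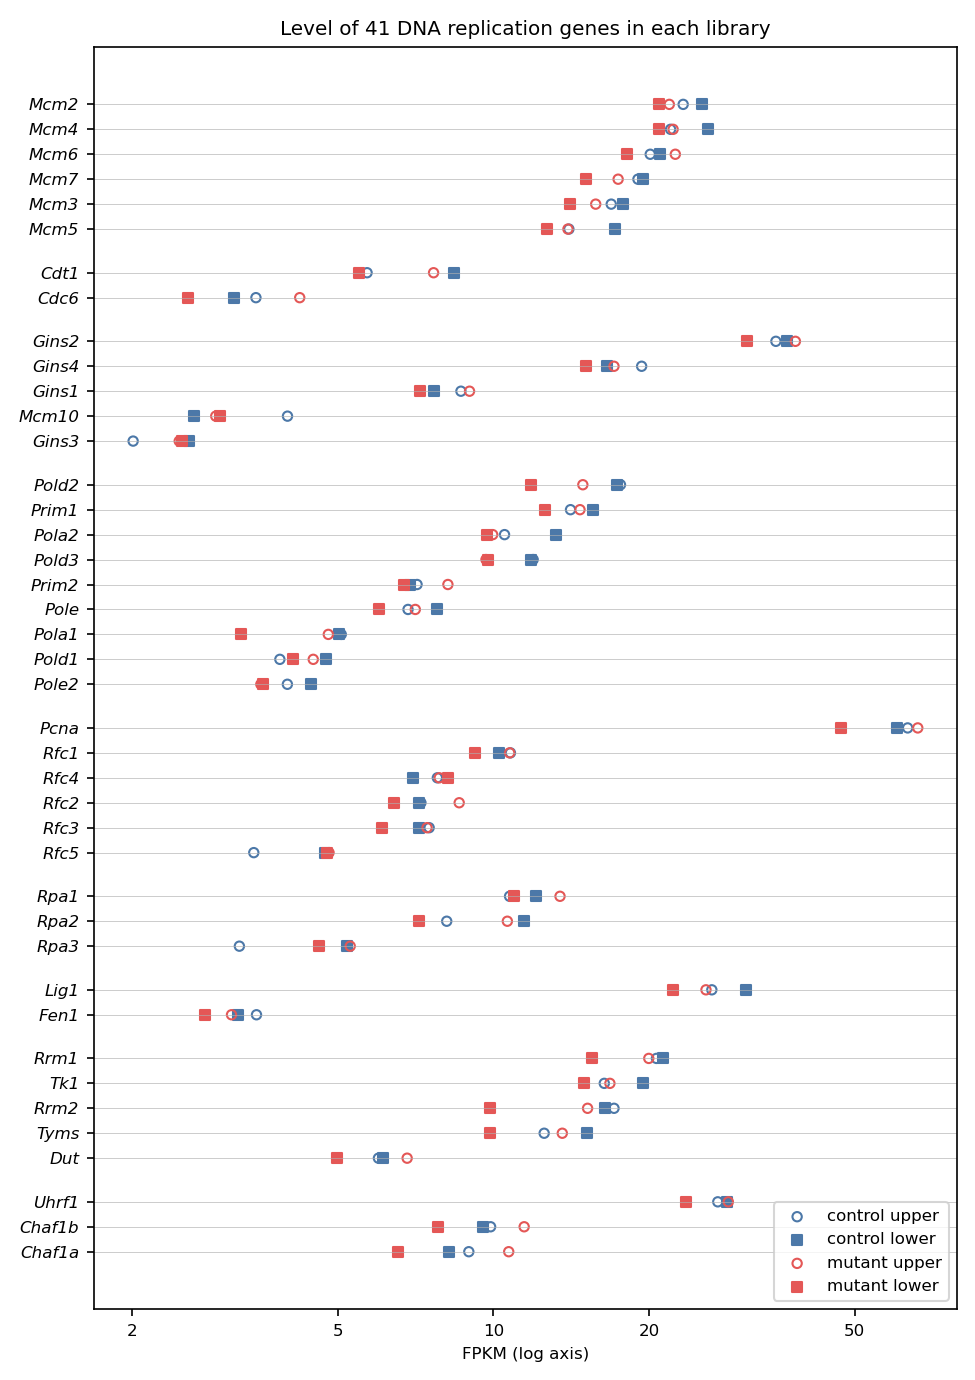
FPKM of each of the 41 genes in each of the 4 libraries, on a log axis, with open points for upper and filled points for lower molars. Each point is 1 library; 32 genes have their lowest point in the mutant lower molar, and means run from 2.39 FPKM for Gins3 to 59.2 FPKM for Pcna.

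The lower molar was compared with the upper in each genotype. In controls the lower molar had the smaller value for 17 of the 41, against 50.8% of all tested genes, with a median of 0.05. In mutants 36 of 41 were lower in the lower molar, against 63.3%, with a median of -0.21 (range -0.64 to 0.05). Both comparisons share libraries with those between genotypes. The genotype difference was more negative in the lower molar for 37 of 41 genes, against 60.3% of all tested genes, with a median gap of -0.36. With limma none of the 41 passed an adjusted p of 0.05 for molar, where 0.724% of all genes did, and the smallest adjusted p was 0.45. Chaf1a alone had an unadjusted p under 0.05, lower in the lower molar, where 6.12% of all genes had one in that direction. Its molar difference was -0.38 (SE 0.15, limma adjusted p = 0.45). Cdc6 followed at -0.33 (SE 0.14, limma adjusted p = 0.51). Molar differences of Rrm2, Pcna, Chaf1b and Pola1 were -0.32, -0.28, -0.27 and -0.23. Without the mutant lower library, and with molar as the only term, those of Rrm2 and Pola1 were 0.027 and 0.025. In the same fit Pcna was at -0.098, Chaf1b at -0.14, Chaf1a at -0.23 and Cdc6 at -0.22. Lower minus upper between the control libraries alone was -0.052 for Rrm2 and -0.010 for Pola1. Without the control lower library Rrm2 and Pola1 were at -0.66 and -0.48, and Pcna at -0.45.

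The scale of the mutant lower library moves these counts. All tested genes together had a median of -0.05 there, and 58.3% of them were lower. After each library was rescaled by median ratios over the tested genes, the mutant lower library lay below its control for 36 of 41 replication genes, against 49.3% of all genes, with a median of -0.20. In the upper molar 19 of 41 were lower on that scale, against 50.1%. Between the mutant molars 33 of 41 were lower in the lower molar on that scale, against 49.6%, with a median of -0.13. The mutant lower library lay below both control libraries for 34 of 41 genes without rescaling, against 46.0% of all genes. Compared with the control upper library in place of the control lower one, it was lower for 35 of 41, against 58.3% of all genes, with a median of -0.20 against -0.05.

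**Figure D4:**
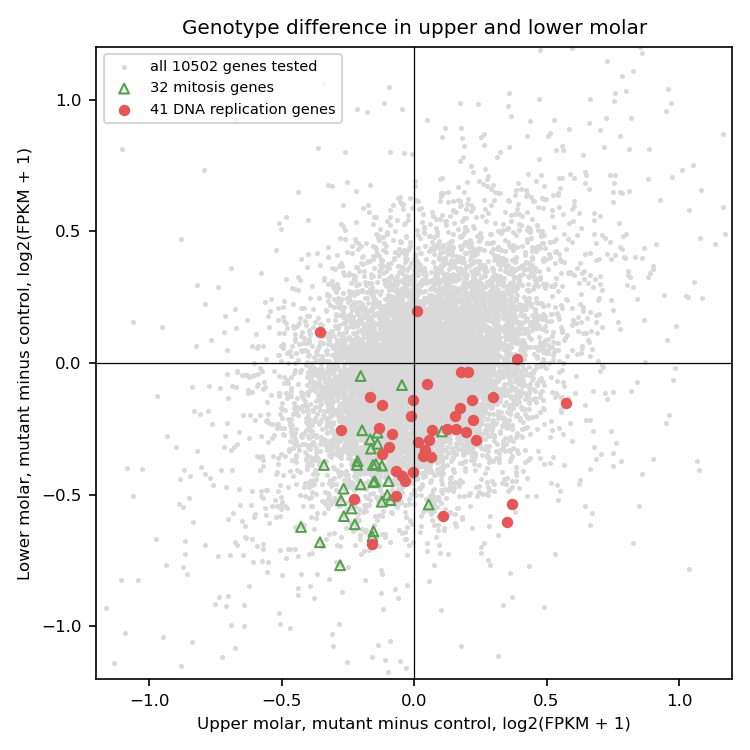
Genotype difference in log2(FPKM + 1) in the upper (horizontal) against the lower molar (vertical), with the 41 replication genes as filled red points, 32 mitosis genes as green triangles and all 10502 tested genes in grey; 119 tested genes lie outside the axes. Of the replication genes, 38 lie below the horizontal 0 line and 17 left of the vertical one.

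Genes outside the 41 were taken from lists. Of 34 other replication factors, among them the origin recognition subunits, 19 were lower in the mutant upper and 28 in the mutant lower molar. Their medians were -0.02 and -0.28, and 46.8% and 58.3% of all tested genes were lower. None of the 34 was called by limma, where 0.800% of all tested genes were. With limma 3 had an unadjusted p under 0.05, all lower in the mutant, against 6.51% of all tested genes in that direction. Mcm9, a helicase of DNA repair, had 2.24, 2.02, 1.27 and 1.31 FPKM in the control upper, control lower, mutant upper and mutant lower libraries, and was lower in both mutants. Mcm9 differed by -0.45 (limma adjusted p = 0.27). Orc1, the largest origin recognition subunit, had 2.02, 2.58, 1.57 and 1.62 FPKM, also lower in both mutants. Pole3, a small subunit of polymerase epsilon, had 9.26, 10.02, 8.63 and 6.74 FPKM, with the mutant lower library lowest.

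The 19 regulators of E2F, RB and the G1 to S step had medians of -0.04 (upper) and -0.18 (lower molar). Below control were 10 and 16 of them, against 46.8% and 58.3% of all tested genes. E2f8, a repressor of the E2F family, had 8.09, 7.86, 6.60 and 5.62 FPKM and a difference of -0.34 (limma adjusted p = 0.28). Both mutant libraries were below both controls in E2f8. None of the 19 passed with limma. An unadjusted p under 0.05 was found for 4, all lower in the mutant, against 6.51% of all tested genes in that direction. The 7 tested genes of other nucleotide supply had medians of -0.02 and -0.18, and 8 other genes of S phase chromatin had 0.06 and -0.27; limma called none of either list, and the unadjusted counts were 0 and 1. Dnmt1, the methyltransferase that Uhrf1 recruits, had 27.1, 30.3, 25.8 and 22.7 FPKM. Asf1b, a histone chaperone, was higher than its control in each molar, by 0.25. Hells, a chromatin remodeller, had 6.89, 7.32, 6.25 and 4.57 FPKM, with both mutants below both controls.

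Mitosis genes give the nearest comparison, since they are also used as signs of cycling. Of 32, 30 were lower in the mutant upper and all 32 in the mutant lower molar, against 46.8% and 58.3% of all tested genes. The medians of the 32 were -0.16 and -0.45. The replication genes thus had a smaller share lower in the upper molar, 17 of 41; this difference between lists was not tested. None of the 32 was called by limma. An unadjusted p under 0.05 was found for 18, all lower in the mutant, against 6.51% of all tested genes in that direction. Mki67, the marker of cycling cells, had 64.7, 64.0, 47.8 and 41.2 FPKM and a difference of -0.52 (limma adjusted p = 0.12). Both mutant libraries of Mki67 were below both controls. Mcm7, Pold2 and Rrm2, among other replication genes, showed the same, while the mutant upper library was highest for Pcna. The 12 housekeeping genes had medians of 0.02 and -0.06, with 5 and 7 lower.

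**Figure D5:**
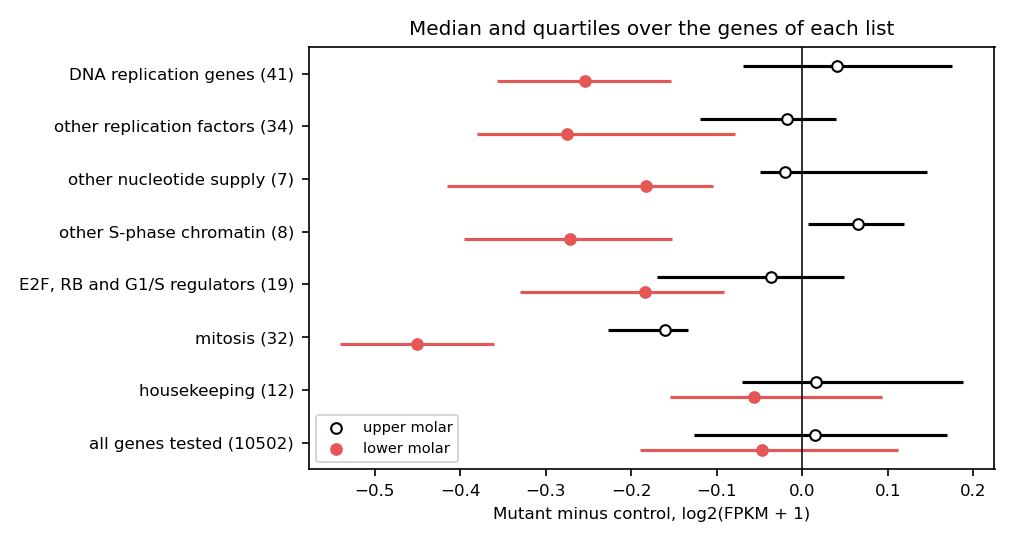
Median (point) and quartiles (line) of the genotype difference in log2(FPKM + 1) over the genes of each list, in the upper (open) and the lower molar (filled), with the number of genes in brackets. The mitosis genes lie furthest below 0 in both molars, at -0.16 and -0.45, and the replication genes at 0.04 and -0.25.

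Markers of other cell types were read beside these counts. The 7 endothelial markers summed to 40.5 FPKM in the control upper, 37.8 in the control lower, 29.1 in the mutant upper and 34.2 in the mutant lower library. The 4 pericyte markers summed to 48.8, 44.5, 31.1 and 28.2 FPKM, lower in both mutants, mostly through Rgs5. Pdgfrb of that list went the other way in each molar, at 14.1, 15.6, 20.2 and 16.1 FPKM. The 9 erythroid markers summed to 1034, 918.1, 932.4 and 1090 FPKM, highest in the mutant lower library, where the replication genes were lowest. Macrophage markers summed to between 2.19 and 3.07 FPKM over 5 genes, neural and glial markers to between 0.765 and 1.90 over 4, and muscle markers to at most 0.484 over 4, with Myod1 and Myf5 below 0.1 in all libraries. The part of these cells in the replication values was not tested. The mesenchymal sum was 828.6, 858.3, 897.1 and 926.4 FPKM, highest in the mutant lower library. Col1a1, Col3a1, Pax9, Twist1, Pdgfra and, by little, Lhx8 of that list were highest there. Msx1, Barx1 and Prrx1 were lowest there, and Lhx6 was neither.

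The genotype differences were also read by E2F-type match, with no test between the sets. In the lower molar all 17 genes with a match were lower in the mutant, with a median of -0.25. Of the 17 with a window and no match, 14 were lower, with a median of -0.27. Of the 7 without a window, all 7 were lower, with a median of -0.14. The share was 38 of 41 over all the replication genes and 58.3% over all tested genes. In the upper molar the medians were -0.01, 0.03 and 0.05. Rrm2 and Tyms, among the lowest in the mutant lower molar, were in the set without a match, and Pola1 in the set with one.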

How the data were processed

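Laser-captured molar mesenchyme gave 4 RNA-seq libraries. Alignment used TopHat 1.4.1 with Bowtie 0.12.7 on mm9, per the submitters' processing notes. Per the file headers, the authors deposited FPKM values with their status for each transcript, and the deposited coverage per transcript was the signal used to approximate reads; settings of the estimation are not given in the sources used here. Whole reads could not be recovered from FPKM, so no count test was run. Transcripts were summed per gene symbol (52 transcripts for the 41 genes, none marked as failed), log2(FPKM + 1) was taken, genes with a mean under 1 FPKM were left out, and limma 3.58.1 in R 4.3.3 fitted genotype and molar with an intensity trend and Benjamini-Hochberg adjustment (1 residual and 5.77 prior degrees of freedom). This procedure was checked on generated data with the same noise for every gene and no molar effect. Results of that check are not given, so it does not tell whether differences as small as those of the replication genes could be called. Members, lists and motifs were chosen with earlier results of these data known. Genes named with values were those with the 10 largest absolute genotype and 6 largest absolute molar coefficients among the 41, the highest member of each role, up to 4 with opposite signs in the 2 molars (ranked by the smaller of the 2 absolute differences), genes from the top 3 of each further list, and others given for their role after their values were seen. Alternatives were pseudocounts of 0.1 and 0.5, filters, rescaling, transcripts under 0.3 kb left out, no trend, 1 term only, and each library left out. Fits with a library left out had genotype or molar as the only term.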

Additional observations from a re-analysis of the deposited data

Results flagged for a closer look

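The genotype difference in the lower molar minus that in the upper is given for the 4 genes, of 23 with opposite signs in the 2 molars, whose smaller absolute difference was largest. It was -0.91 for Cdt1, -0.96 for Rpa2, -0.52 for Chaf1a and -0.44 for Cdc6, each higher in the mutant upper and lower in the mutant lower molar. Among the others of the 23 it was -0.73 for Rpa3 and -0.69 for Tyms, and 0.48 for Mcm10, which went the other way. The median of the 41 genes in the lower molar minus their median in the upper was -0.29; the median of the gaps gene by gene was -0.36. With 1 library per group this dependence on the molar was not tested.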

How the results depend on the processing

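None of the 41 replication genes was called for genotype or molar under any alternative that kept all 4 libraries, with limma throughout. At a mean of at least 5 FPKM only 32 of them were tested. At an unadjusted p under 0.05, the genotype count was 3 and ran from 0 (without the mutant lower library) to 10 (without the mutant upper), where 929 and 1357 of all tested genes passed it; the molar count was 1 and ran from 0 (without the mutant lower, 407 of all genes) to 6 (without the control lower, 781). The number of all genes called for genotype was 84; it was 0 with no filter on low values (1590 at an unadjusted p under 0.05), 146 at a mean of at least 5 FPKM, 133 without transcripts under 0.3 kb, 15 after rescaling, 38 without the trend, 7 without a molar term, and 5 to 18 with 1 library left out. For molar it was 76, and 0 with no filter (1402 unadjusted), 127, 139 and 12 without a genotype term, and 0 to 21 with 1 library left out (0 without the mutant lower library, 407 unadjusted). The cause was not tested. Leaving out the control upper library turned the genotype difference of Rpa3 to -0.069 (range -0.069 to 0.49 over libraries left out). Without the mutant lower library the molar difference was 0.027 for Rrm2 (range -0.66 to 0.027) and 0.025 for Pola1 (range -0.48 to 0.025). Fits with a library left out kept only the term compared, so the change of model and of libraries cannot be told apart. Lower minus upper between the control libraries alone was -0.052 for Rrm2 and -0.010 for Pola1. Members lower in the mutant lower molar were 38, and 36 after rescaling. At 3 reads a 2 kb transcript would have 0.101 to 0.115 FPKM.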

Other observations

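Dut is listed with 2 transcripts, and the second made up 34.5% of its FPKM in the control upper and 48.9% in the mutant upper library, but 0.0161% in the control lower and 0.0110% in the mutant lower library. Shares between near-identical transcripts rest on the authors' estimates, so only the sum was compared above. In Lig1 the main transcript held between 79.9% and 89.6% of the FPKM, and in Uhrf1 between 68.8% and 76.1%.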
